A study of Mus musculus with 8 samples.

Results

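The IFIT family genes measured here were *Ifit1*, *Ifit2*, *Ifit3* and *Ifit1bl1*. They were taken as every probe set annotated to one of these genes alone, which gave 4 probe sets of the 45101 on the array, 1 for each of these 4 genes of the 18194 named on it, and all 4 are described. The samples were bone marrow-derived macrophages (BMDM) of C57Bl/6 mice on 8 Affymetrix arrays in 4 groups of 2: *miR-155*-/-(LPS + IL-10), WT(LPS + IL-10), *miR-155*-/-(LPS) and WT(LPS), with the knockout donors and groups written KO in places. All 4 groups had been differentiated for 7 days from thawed, frozen bone marrow in 15% L929 conditioned medium and stimulated with LPS (100 ng/ml) for 24 h, and the LPS + IL-10 groups received IL-10 (20 ng/ml) 5 min before LPS. No unstimulated BMDM were analysed here, so the level before LPS is not part of these comparisons. The LPS + IL-10 and LPS arrays with the same genotype and replicate number were treated as cultures of one animal, called a donor below. By the labels the *miR-155*-/- animals were male and the WT animals female, so genotype and sex cannot be told apart. In the knockout miR-155 is deleted in the germ line, in every cell type of the culture.

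IFIT genes encode interferon-induced proteins with tetratricopeptide repeats. They are almost silent in resting cells and are among the most strongly induced genes after type I interferon. IFIT1 binds RNA whose cap lacks the host's methyl marks and keeps it from being translated, IFIT2 binds AU-rich RNA, and IFIT3 is known, mainly from human cells, to stabilise IFIT1. *Ifit1bl1* is a mouse gene of the same cluster that resembles *Ifit1*. In macrophages LPS acts through TLR4 and the adaptor TRIF to induce IFN-β, which signals back through its receptor, JAK1 and TYK2 to a complex that holds STAT2 and IRF9. That complex binds the interferon-stimulated response element (ISRE). IL-10 acts through STAT3 and restrains the LPS response, and miR-155 is a microRNA that macrophages raise after LPS.

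The miRNA missing from the knockout and the promoter stretches that carry the interferon element are shown first. The miRNA is what the genotype removes, and the element lies in front of the start sites of 3 of the 4 members. All sequences are those of RefSeq on GRCm38.p6. The mature miR-155-5p (chr16:84714143-84714165, plus strand) is printed with its seed, bases 2 to 8, in capitals.
miR-155-5p: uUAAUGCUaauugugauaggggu

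The 250 bases before each RefSeq start site were searched on both strands for the ISRE core, spelled GAAANNGAAA or, on the other strand, TTTCNNTTTC. All 4 genes had at least 1 such window, and 3 of the 4 held the core. It was present in 2.98% of the 32851 windows of this length in the promoter table, and in 936 of its 27025 genes (3.46%). The stretches below are given 5′ to 3′ on the strand of the gene, with each match in capitals and 15 bases on either side or up to the start site. They lie at chr19:34640770-34640828 (plus strand) for *Ifit1*, at chr19:34583358-34583431 (plus strand) for *Ifit3*, and, for the 2 start sites of *Ifit1bl1*, at chr19:34599428-34599465 and chr19:34602048-34602087 (both minus strand).
Ifit1: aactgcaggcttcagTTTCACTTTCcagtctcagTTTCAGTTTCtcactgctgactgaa
Ifit3: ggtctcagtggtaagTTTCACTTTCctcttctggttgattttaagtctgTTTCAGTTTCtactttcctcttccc
Ifit1bl1, start site 1: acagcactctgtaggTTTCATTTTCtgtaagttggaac
Ifit1bl1, start site 2: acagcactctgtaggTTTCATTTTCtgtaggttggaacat

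*Ifit1* and *Ifit3* each held 2 cores, and 0.18% of all windows held 2 or more. In *Ifit1* they lay at −104 to −95 and −85 to −76 from the start site, and in *Ifit3* at −156 to −147 and −122 to −113. *Ifit1bl1* held 1 core before each start site, at −23 to −14 and at −104 to −95. The core was not found in either window of *Ifit2*. The letters TTCNNNGAA, the GAS form to which STAT dimers bind and which read the same on both strands, were found in 7.02% of all windows and, among the 4 genes, only in 1 window of *Ifit2*, at −241 to −233. Such matches describe letters in these windows and do not show that a factor was bound.

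**Figure D1:**
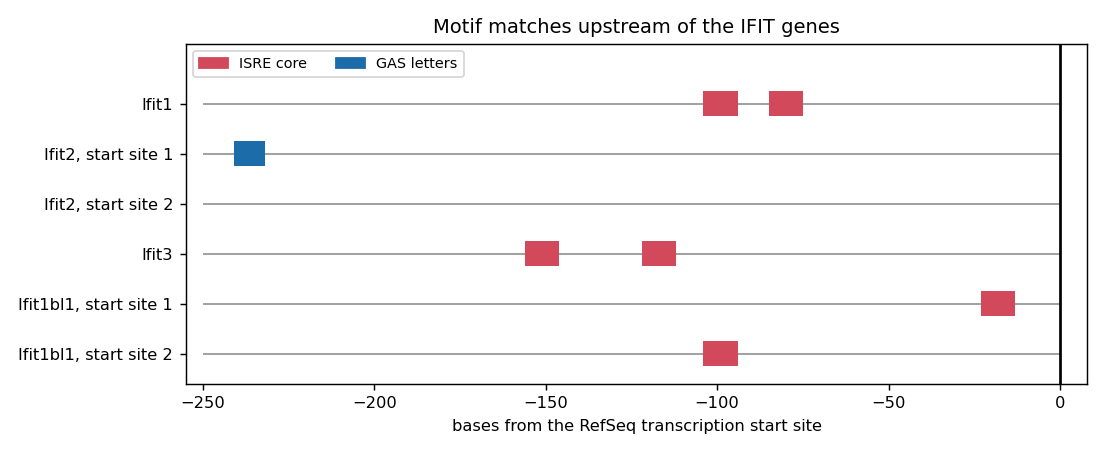
Positions of ISRE core matches (red) and GAS letters (blue) in the 250 bases before each RefSeq start site of the 4 IFIT genes, with the distance from the start site in bases on the x axis and 1 row per start site. *Ifit1* and *Ifit3* carry 2 ISRE cores, *Ifit1bl1* carries 1 before each of its 2 start sites, and *Ifit2* carries none in its 2 windows.

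Values are log2 intensities as normalised by the authors with RMA, a method that sets all arrays to one distribution, so that a step of 1 is a doubling. The median over all probe sets and arrays was 3.91. Levels of different probe sets are not compared, since probes differ in how well they bind. A probe set was called where the adjusted p of limma, over all 45014 probe sets tested, was under 0.05. Both arrays of WT donor 1 carried fibroblast and stromal transcripts: 13 of 14 such markers were highest there, with a median of 8.24 and 8.35 against 3.13 to 4.80 on the other 6 arrays. The 10 macrophage markers had medians of 12.59 to 12.79 on all 8 arrays, and no dendritic cell, T or NK cell or B cell marker reached 6 on any array. The summed level of 9 neutrophil and granulocyte markers (log2 of the summed linear values) was 12.54 and 12.82 for *miR-155*-/-(LPS + IL-10), against 13.30 and 13.35 for WT(LPS + IL-10). It was 11.03 and 11.28 for *miR-155*-/-(LPS), against 12.54 and 12.45 for WT(LPS), so that it moved with genotype and IL-10 in the direction opposite to that of the IFIT genes described below. *S100a8* (mean 12.12 over the 8 arrays) and *Mmp8* (9.58) were its brightest members, while *Mpo*, *Elane*, *Ngp*, *Ltf* and *Cxcr2* averaged 1.88 to 2.66. *Camp* went the other way from this sum, at 5.39 in *miR-155*-/-(LPS + IL-10) and 5.25 in WT(LPS + IL-10). It averaged 6.06 in *miR-155*-/-(LPS) and 5.42 in WT(LPS). *S100a9* rose with IL-10 in WT BMDM (7.11 to 7.82) and fell in *miR-155*-/- BMDM (3.98 to 3.37). The part of this sum in the results was not tested. *Mir155hg*, from which miR-155 is processed, lay between 1.70 and 4.02 on the 8 arrays. The sources used here do not place its probe set relative to the deletion, so this transcript is no check of the genotypes. In bulk RNA, fewer cells that express a gene and less of its RNA per cell cannot be told apart.

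All 4 IFIT genes had the same order of group means: highest in *miR-155*-/-(LPS), then WT(LPS), then *miR-155*-/-(LPS + IL-10), and lowest in WT(LPS + IL-10). Within each gene, both *miR-155*-/-(LPS) arrays lay above the other 6 arrays. With IL-10 in *miR-155*-/- BMDM all 4 genes were called lower, beside 1.42% of all probe sets. In WT BMDM only *Ifit1* was called lower (limma adjusted p = 0.0472), beside 0.0222% of all probe sets. *Ifit2*, *Ifit3* and *Ifit1bl1* had larger falls there that were not called (−2.54, −2.76 and −2.02, against −1.78 for *Ifit1*). Under LPS alone, *Ifit1* (limma adjusted p = 0.0475) and *Ifit1bl1* were called higher with the knockout, beside 0.951% of all probe sets. The estimates of *Ifit2* and *Ifit3* were also above 0 (2.53 and 1.73) but were not called.

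*Ifit1*, the cap-sensing member (probe set 1450783_at), was at 10.79 and 10.65 in *miR-155*-/-(LPS + IL-10) and at 8.90 and 9.31 in WT(LPS + IL-10). Its values were 12.06 and 11.97 in *miR-155*-/-(LPS), against 10.65 and 11.13 in WT(LPS). The replicates of *Ifit1* were the closest of the family, with SDs of 0.06 to 0.34 in the 4 groups (n = 2 each). The *miR-155*-/-(LPS + IL-10) and WT(LPS) arrays overlapped, and no other pair of groups did. With 2 arrays per group, here and below, overlap or its absence is a description, with no share of all probe sets beside it and no test.

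*Ifit2*, the AU-rich RNA-binding member (probe set 1418293_at), was at 9.87 and 8.31 in *miR-155*-/-(LPS + IL-10) and at 6.28 and 7.36 in WT(LPS + IL-10). It was at 12.09 and 11.69 in *miR-155*-/-(LPS), against 8.89 and 9.82 in WT(LPS). It had the widest spread in the LPS + IL-10 groups, with an SD of 1.10 in *miR-155*-/-(LPS + IL-10) and 0.76 in WT(LPS + IL-10). Here too only the *miR-155*-/-(LPS + IL-10) and WT(LPS) arrays overlapped.

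*Ifit3* (probe set 1449025_at) was at 10.08 and 9.46 in *miR-155*-/-(LPS + IL-10) and at 7.27 and 8.20 in WT(LPS + IL-10). It was at 12.37 and 12.07 in *miR-155*-/-(LPS), against 10.22 and 10.76 in WT(LPS). None of its 4 groups overlapped. A near copy, *Ifit3b*, lies in the same cluster and has no probe set of its own name here, and whether its RNA adds to this signal was not tested.

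*Ifit1bl1* (probe set 1435529_at) stood apart in the span of its values. It was at 11.55 and 10.98 in *miR-155*-/-(LPS), against 5.65 and 6.94 in WT(LPS). In the LPS + IL-10 groups it was at 5.67 and 4.66 in *miR-155*-/- BMDM and at 3.88 and 4.68 in WT BMDM. The *miR-155*-/-(LPS) values stood at percentiles 97.6 and 95.6 of all probe sets of their arrays, and those of the other 6 arrays between percentiles 49.1 and 71.8. The *miR-155*-/-(LPS + IL-10) arrays overlapped both WT groups.

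**Figure D2:**
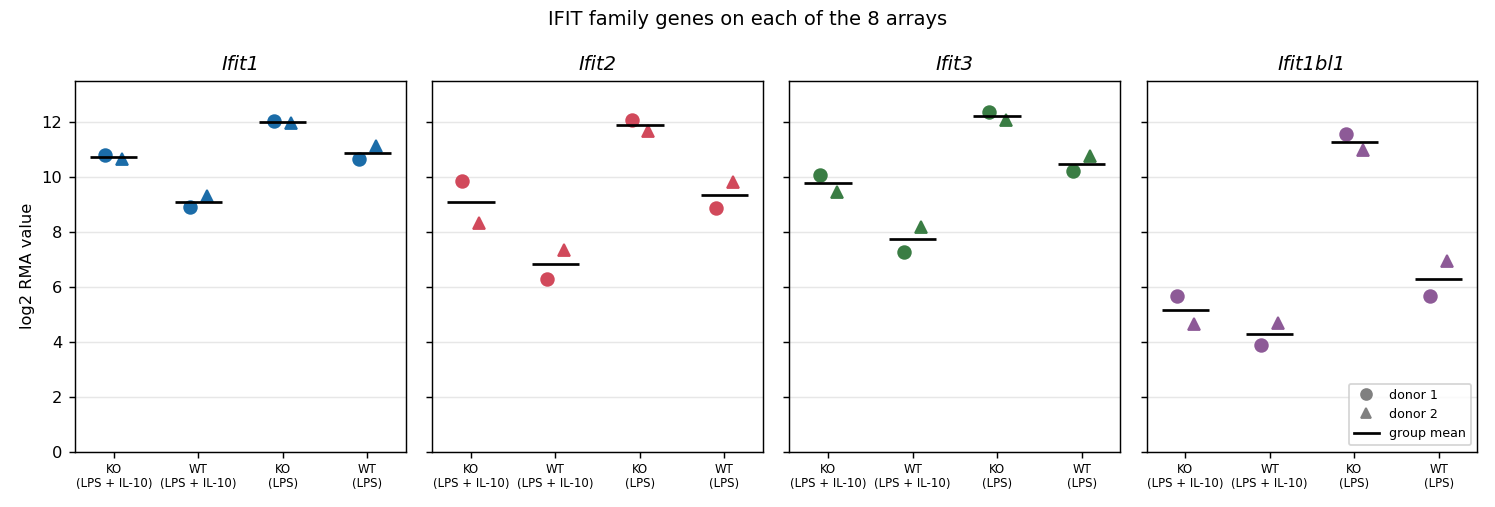
Log2 RMA value of each IFIT gene on the 8 arrays (y axis) by group (x axis), with circles for donor 1, triangles for donor 2 and a black line for the mean of the 2 arrays. In every panel both *miR-155*-/-(LPS) arrays lie highest, and *Ifit1bl1* is at 11.55 and 10.98 there and at 6.94 or below on the other 6 arrays.

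The first comparison asked what IL-10 did to the family in LPS-stimulated BMDM that lack miR-155. All 4 genes were lower in *miR-155*-/-(LPS + IL-10) than in *miR-155*-/-(LPS), against 1.42% of all probe sets called lower and 1.26% called higher in this comparison. *Ifit1bl1* averaged 5.16 ± 0.71 in *miR-155*-/-(LPS + IL-10), against 11.27 ± 0.40 without IL-10 in *miR-155*-/-(LPS) (SD, n = 2 each), a log2 fold change of −6.11 (SE 0.42, limma adjusted p = 0.00233), or 68.9-fold lower. It was the largest change in size of the 45014 probe sets in this comparison. The level of *Ifit1bl1* with IL-10 was low and carries no detection call, so the full size of its fall is not settled. *Ifit2* changed by −2.80 (SE 0.48, adjusted p = 0.0341), *Ifit3* by −2.45 (SE 0.29, adjusted p = 0.0100) and *Ifit1* by −1.29 (SE 0.17, adjusted p = 0.0144). By donor, the fall of *Ifit1bl1* was −5.89 in KO donor 1 and −6.32 in KO donor 2, and that of *Ifit1* was −1.27 and −1.31. *Ifit3* changed by −2.28 and −2.61, while *Ifit2* was less even, at −2.22 and −3.38. The median of the 4 genes was −2.62, beside 0.01 for all probe sets. Leaving out 1 array at a time ended the call of *Ifit1* for each of the 4 *miR-155*-/- arrays (adjusted p up to 0.127), that of *Ifit3* for 3 of them (up to 0.104; not for *miR-155*-/-(LPS + IL-10) replicate 1) and that of *Ifit2* for every array but the same one (up to 0.207). *Ifit2* was also not called with no donor block (adjusted p = 0.0975) or with an intensity trend (0.0867). The call of *Ifit1bl1* held without each of the 8 arrays, at adjusted p of 0.00508 to 0.0336. With a whole knockout donor left out, which leaves 1 pair, no IFIT gene was called (*Ifit1bl1* adjusted p 0.165 and 0.167).

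The same comparison in WT BMDM called only *Ifit1*, against 0.0222% of all probe sets called lower and 0.00889% called higher (14 probe sets in all). *Ifit1* averaged 9.10 ± 0.29 in WT(LPS + IL-10) and 10.89 ± 0.34 in WT(LPS), a log2 fold change of −1.78 (SE 0.17, limma adjusted p = 0.0472). The other 3 members had estimates further below 0 that did not pass the test: −2.76 for *Ifit3* (SE 0.29, adjusted p = 0.0604), −2.54 for *Ifit2* (SE 0.48, adjusted p = 0.169) and −2.02 for *Ifit1bl1* (SE 0.42, adjusted p = 0.218). By size they ranked the 3rd, 8th and 36th of all probe sets, and *Ifit1* the 54th. Both donors went the same way in each gene, with −1.75 and −1.82 for *Ifit1*, −2.61 and −2.46 for *Ifit2*, −2.95 and −2.57 for *Ifit3*, and −1.78 and −2.26 for *Ifit1bl1* in donors 1 and 2. Leaving out any 1 array ended the call of *Ifit1* (adjusted p up to 0.564). With the donor as a fixed term, all 4 genes were called lower.

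The next comparison asked how the family differed with the loss of miR-155 under LPS alone. *Ifit1bl1* and *Ifit1* were higher in *miR-155*-/-(LPS) than under LPS in WT BMDM, against 0.951% of all probe sets called higher and 0.513% called lower. *Ifit1bl1* averaged 11.27 ± 0.40 in *miR-155*-/-(LPS) and 6.30 ± 0.91 in WT(LPS), a log2 fold change of 4.97 (SE 0.48, limma adjusted p = 0.0084), or 31.4-fold, the 9th in size of all probe sets. *Ifit1* averaged 12.01 ± 0.06 in *miR-155*-/-(LPS) and 10.89 ± 0.34 in WT(LPS), a change of 1.13 (SE 0.20, adjusted p = 0.0475). *Ifit2* (2.53, SE 0.55, adjusted p = 0.0874) and *Ifit3* (1.73, SE 0.33, adjusted p = 0.0635) did not pass the test. The median of the 4 was 2.13, beside 0.02 for all probe sets. WT donor 1, the donor with stromal transcripts, had the lower value of the 2 WT donors for all 4 genes under both stimulations. Without it the difference of *Ifit1* was 0.88 and that of *Ifit1bl1* was 4.32. With each donor left out in turn, these differences ran from 0.88 to 1.37 and from 4.32 to 5.62. Such fits leave 1 array in each group of the donor left out, so only the estimates are given. The part of stromal cells in these differences was not tested. The call of *Ifit1* was lost without any 1 of the 8 arrays (adjusted p up to 0.262), and that of *Ifit1bl1* without either *miR-155*-/-(LPS) array (0.0876 and 0.0577) or WT(LPS) replicate 1 (0.0557).

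In the presence of IL-10, none of the 4 genes was called between *miR-155*-/-(LPS + IL-10) and WT(LPS + IL-10), where 0.0378% of all probe sets were called higher and 0.0333% lower. The estimates were positive for each gene: 1.62 for *Ifit1* (SE 0.20, limma adjusted p = 0.0614), 2.04 for *Ifit3* (SE 0.33, adjusted p = 0.129), 2.27 for *Ifit2* (SE 0.55, adjusted p = 0.278) and 0.88 for *Ifit1bl1* (SE 0.48, adjusted p = 0.648). At an unadjusted p under 0.05, 3 of the 4 were higher, against 5.59% of all probe sets. For *Ifit1*, *Ifit2* and *Ifit3* both *miR-155*-/-(LPS + IL-10) arrays lay above both WT(LPS + IL-10) arrays, and for *Ifit1bl1* the groups overlapped. Such an order of so few arrays is a description and no test. The mean of *miR-155*-/-(LPS + IL-10) minus that of WT(LPS) was −0.17 for *Ifit1*, −0.27 for *Ifit2*, −0.72 for *Ifit3* and −1.14 for *Ifit1bl1*; these groups differ in genotype and in IL-10 at once and were not tested.

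Whether IL-10 acted on the family to a different degree in the 2 genotypes was tested as the difference of the 2 IL-10 effects. No IFIT gene was called, where 0% of all probe sets were called higher and 0.0333% lower. For *Ifit1bl1* the difference was −4.09 (95% interval −5.49 to −2.69, unadjusted p = 0.000219, limma adjusted p = 0.144), with −5.89 and −6.32 in the KO donors against −1.78 and −2.26 in the WT donors. This difference was called with the donor as a fixed term (adjusted p = 0.0208). The WT(LPS + IL-10) values of *Ifit1bl1*, 3.88 and 4.68, lay near the array median. Those of *miR-155*-/-(LPS + IL-10), 5.67 and 4.66, were also low. The deposited values carry no detection call. The full size of the fall of *Ifit1bl1* in either genotype, and with it the size of this difference, is therefore not settled. For the other 3 genes the intervals contained 0: the difference was 0.49 for *Ifit1* (−0.08 to 1.06), −0.26 for *Ifit2* (−1.86 to 1.33) and 0.31 for *Ifit3* (−0.66 to 1.28). The sign for *Ifit2* and *Ifit3* changed when single arrays were left out.

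**Figure D3:**
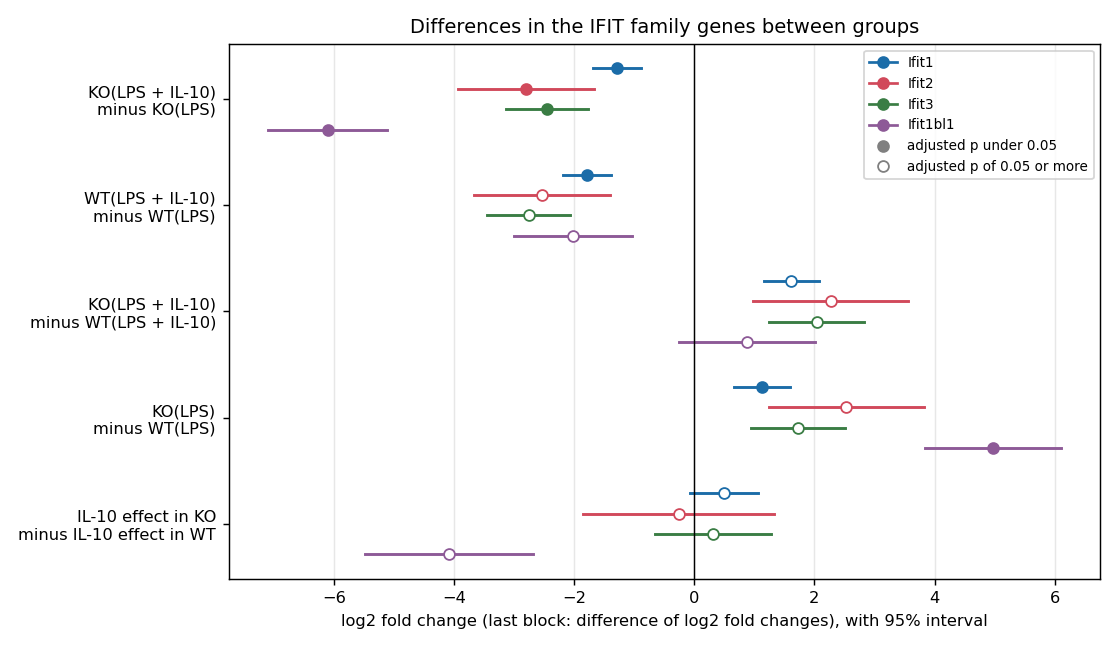
Log2 fold change (x axis) of the 4 IFIT genes in the 4 comparisons and, in the lowest block, the difference of the 2 IL-10 effects, with 95% intervals of the limma fit and filled points at an adjusted p under 0.05. All 4 genes are called lower in *miR-155*-/-(LPS + IL-10) than in *miR-155*-/-(LPS), and *Ifit1bl1* lies apart at −6.11 there, at 4.97 in *miR-155*-/-(LPS) minus WT(LPS) and at −4.09 in the difference of effects.

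The study itself selected probe sets at an unadjusted p under 0.05 with a log2 fold change over 1 in size. By that rule all 4 IFIT genes were selected as lower in *miR-155*-/-(LPS + IL-10) than in *miR-155*-/-(LPS) (1.42% of all probe sets lower, 1.08% higher) and as lower in WT(LPS + IL-10) than in WT(LPS) (0.355% lower, 0.333% higher). All 4 were selected as higher in *miR-155*-/-(LPS) than under LPS in WT BMDM (1.52% higher, 0.997% lower). *Ifit1*, *Ifit2* and *Ifit3* were selected as higher in *miR-155*-/-(LPS + IL-10) than in WT(LPS + IL-10) (0.671% higher, 0.553% lower). For the difference of the IL-10 effects only *Ifit1bl1* was selected, as lower (0.982% lower, 0.775% higher). Each of the 4 groups serves in 3 of these 5 comparisons, which are therefore not independent.

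The 4 genes followed one another closely. Over the 8 arrays Pearson's r between members was 0.870 to 0.989, as a description of arrays that share groups and donors. The genes outside the family and its lists whose values were most like the mean profile of the 4 were *Phf11d* (r = 0.998), *Lmo4* (0.994), *Herc6* (0.993), *Gbp2* (0.991) and *Rsad2* (0.989), of 221 candidate probe sets and over the same 8 arrays. *Herc6* encodes the mouse ligase that attaches ISG15, *Gbp2* a guanylate-binding GTPase and *Rsad2* the antiviral enzyme viperin, all 3 induced by interferon. *Lmo4* encodes a LIM-domain transcription cofactor. *Rsad2* averaged 9.52 in *miR-155*-/-(LPS + IL-10), 7.62 in WT(LPS + IL-10), 11.74 in *miR-155*-/-(LPS) and 9.72 in WT(LPS). *Herc6* averaged 8.92 in *miR-155*-/-(LPS + IL-10), 7.82 in WT(LPS + IL-10), 10.82 in *miR-155*-/-(LPS) and 9.10 in WT(LPS). The shared order of the groups follows from choosing these 5 by their correlation and is no separate result. The ISRE core was found before the start of *Gbp2* and *Rsad2*, and not before *Phf11d*, *Lmo4* or *Herc6*, where 3.46% of all genes with a window held it.

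**Figure D4:**
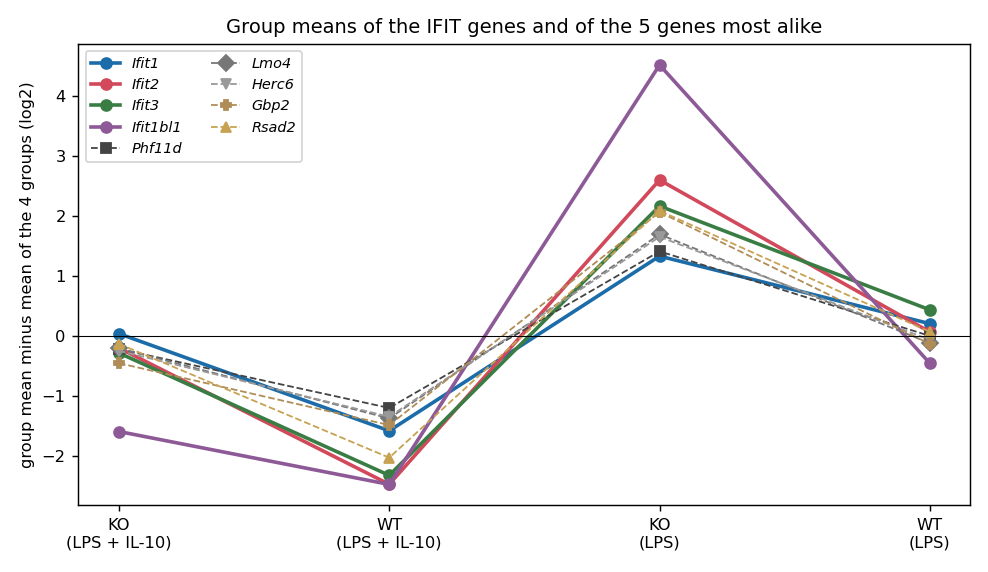
Group mean minus the mean of the 4 groups, in log2 units (y axis), for the 4 IFIT genes (solid lines) and the 5 genes most alike in profile (dashed lines), by group (x axis). The 5 were chosen for their likeness to the IFIT profile, so their shared course is given as a description, and the *Ifit1bl1* line spans the widest range.

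Of 21 genes that carry the interferon signal to the IFIT promoters or, like *Usp18* and *Socs1*, restrain it, 18 had a probe set of their own name. The other 3 were not analysed here. With IL-10 in *miR-155*-/- BMDM, 3 of the 18 were lower, 0 were higher and 15 were not called, against 1.42% of all probe sets lower and 1.26% higher, at a median log2 fold change of −0.34 (0.01 for all probe sets). At an unadjusted p under 0.05, 10 were lower and 1 higher, where 8.40% of all probe sets were lower and 8.87% higher. The 3 called were *Irf7* (−1.26, limma adjusted p = 0.0159), which amplifies interferon production, *Stat2* (−1.10, adjusted p = 0.0130), a subunit of the ISRE-binding complex, and the receptor kinase *Tyk2* (−0.80, adjusted p = 0.0478). With IL-10 in WT BMDM 0 of the 18 were called by limma (at an unadjusted p under 0.05, 3 lower and 1 higher, where 4.58% of all probe sets were lower and 4.69% higher). The median there was −0.18. *Irf7* stood at −1.63 (adjusted p = 0.0604) and *Stat2* at −0.89 (adjusted p = 0.126). The call of *Tyk2* ended without any 1 of the 8 arrays (adjusted p up to 0.279), that of *Irf7* without any of the 4 *miR-155*-/- arrays (up to 0.139) and that of *Stat2* without 3 of these 4 (up to 0.106; not without *miR-155*-/-(LPS) replicate 2).

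Between the LPS groups, *Irf7* (1.24, limma adjusted p = 0.0381) and *Stat2* (1.10, adjusted p = 0.0297) were higher in *miR-155*-/- BMDM, and 16 of the 18 were not called (0.951% of all probe sets higher, 0.513% lower). Of the 18 estimates, 17 were above 0, those of *Usp18* and *Socs1* among them, with a median of 0.35. At an unadjusted p under 0.05, 8 were higher and 0 lower, where 7.80% of all probe sets were higher and 5.99% lower. *Irf7* was at 10.89 and 10.51 in *miR-155*-/-(LPS + IL-10) and at 8.91 and 9.28 in WT(LPS + IL-10). It was at 12.04 and 11.88 in *miR-155*-/-(LPS), against 10.54 and 10.90 in WT(LPS), which is the order of groups seen in the IFIT genes. Both calls were lost without WT donor 1, at 1.06 for *Irf7* (adjusted p = 0.134) and 1.03 for *Stat2* (adjusted p = 0.140), and without any 1 of the 8 arrays (adjusted p up to 0.224 and 0.191). *Irf9*, the DNA-binding subunit beside STAT2, stood at 0.28 in this comparison, at −0.18 with IL-10 in *miR-155*-/- BMDM and at −0.24 in WT BMDM, and passed no test. *Ifnb1*, which encodes IFN-β, averaged 3.23 over the 8 arrays, below the array median, and did not pass the test in these 3 comparisons (0.16 with IL-10 in *miR-155*-/- BMDM, −0.21 in WT BMDM and 0.07 between the LPS groups). Between *miR-155*-/-(LPS + IL-10) and WT(LPS + IL-10) 0 of the 18 were called by limma (median 0.24), and an unadjusted p under 0.05 was reached by 6 above 0 and by 0 below, where 5.59% of all probe sets were higher and 3.35% lower. For the difference of the IL-10 effects 0 were called by limma, and an unadjusted p under 0.05 was reached by 1 below 0 and by 0 above, where 5.01% of all probe sets were lower and 5.43% higher.

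**Figure D5:**
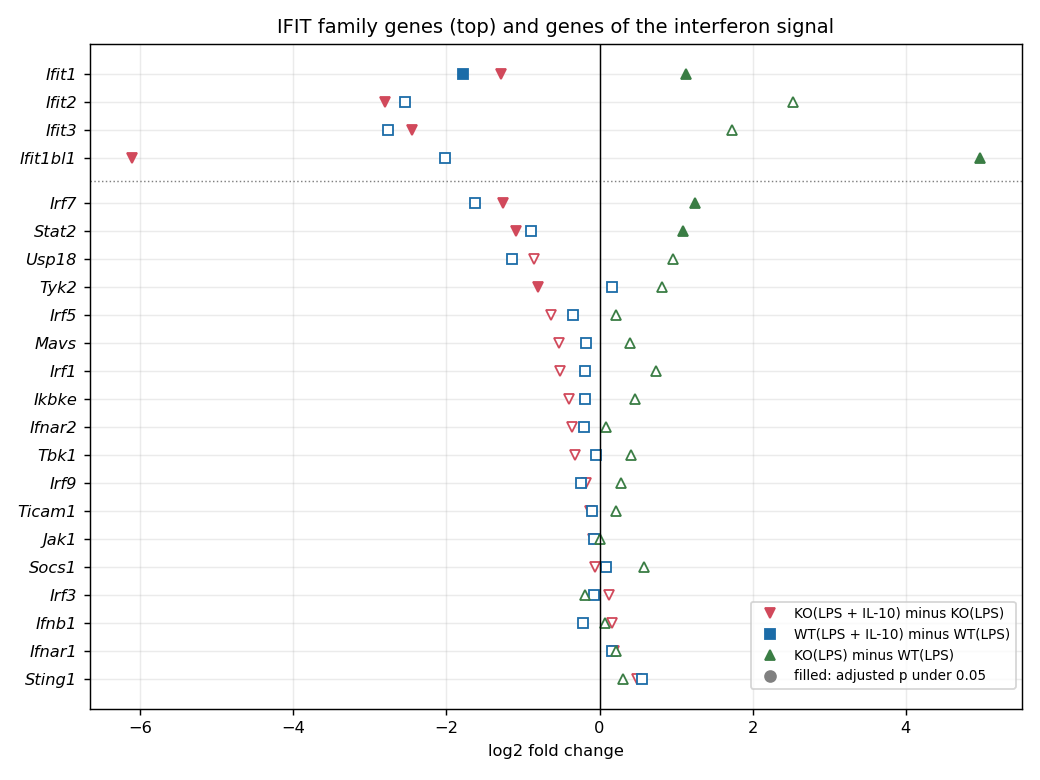
Log2 fold change (x axis) of the 4 IFIT genes (above the dotted line) and the 18 measured genes of the interferon signal in 3 comparisons, with filled symbols at an adjusted p under 0.05. *Irf7* and *Stat2* are the genes below the line with filled symbols both for IL-10 in *miR-155*-/- BMDM and for *miR-155*-/-(LPS) minus WT(LPS), and *Ifnb1* lies near 0 in all 3.

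Of 19 genes for the cap, its methylation and the translation initiation factors on which IFIT proteins act, 17 were measured. *Cmtr1*, the cap methyltransferase whose mark shields host mRNA from IFIT1, was lower in *miR-155*-/-(LPS + IL-10) than in *miR-155*-/-(LPS), by −0.82 (limma adjusted p = 0.0315). The other 16 did not pass the test (median over the 17 of 0.05). Of all probe sets, 1.42% were called lower and 1.26% higher in this comparison. *Cmtr1* was at 8.54 and 8.56 in *miR-155*-/-(LPS + IL-10), against 9.34 and 9.39 in *miR-155*-/-(LPS). This call ended without any of the 4 *miR-155*-/- arrays or either WT(LPS + IL-10) array (adjusted p up to 0.189). In the other comparisons 0 of the 17 were called by limma, where 0 to 2 had an unadjusted p under 0.05 in either direction (shares of all probe sets per direction were 3.35% to 7.80%).

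In RefSeq the mouse cluster on chromosome 19 runs in the order *Ifit2*, *Ifit3*, *Ifit1bl1*, *Ifit3b*, *Ifit1bl2* and *Ifit1*. *Ifit1bl2* is no member by the rule used here and had 2 probe sets. The brighter one was at 5.32 and 4.99 in *miR-155*-/-(LPS), against 3.10 and 3.52 in WT(LPS), a difference of 1.85 (limma adjusted p = 0.0131). It was at 3.68 and 3.27 in *miR-155*-/-(LPS + IL-10), a change of −1.68 from *miR-155*-/-(LPS) (adjusted p = 0.00666), and at 2.80 and 2.96 in WT(LPS + IL-10). The first call ended without either *miR-155*-/-(LPS) array or WT(LPS) replicate 1 (adjusted p up to 0.120), without WT donor 1, the donor with stromal transcripts (1.64, adjusted p = 0.0720), and with only the arrays compared (0.0842). The second ended without *miR-155*-/-(LPS) replicate 1 or *miR-155*-/-(LPS + IL-10) replicate 2 (up to 0.0827). The other probe set stayed at 1.48 to 2.36 on all arrays, with no call. The windows before *Ifit1* and one start of *Ifit1bl2*, which run in opposite directions, overlap in part.

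The 8 protein-coding neighbours, 4 on either side of the cluster, were all measured. *Pank1*, a pantothenate kinase of coenzyme A synthesis, was the only one called in any comparison, and its direction was opposite to that of the IFIT genes. It was at 5.93 and 5.90 in *miR-155*-/-(LPS + IL-10), against 5.08 and 4.84 in *miR-155*-/-(LPS), higher by 0.96 (limma adjusted p = 0.0130, up to 0.103 without 1 of these 4 arrays, each of which ended the call). Of all probe sets, 1.26% were called higher and 1.42% lower in that comparison. The median over the 8 neighbours was −0.04 there, −0.02 with IL-10 in WT BMDM and −0.09 between *miR-155*-/- and WT BMDM under LPS alone. The ISRE core was held by 0 of the 8 in the windows searched, against 3.46% of all genes with a window. Of the interferon signal genes with a window it was held by 2 of 16 (*Stat2* and *Socs1*), and of the cap and translation genes by 1 of 13 (*Eif3a*).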

How the data were processed

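BMDM of 2 *miR-155*-/- and 2 WT mice gave 8 Affymetrix arrays. The deposited values are log2 intensities, made by the authors with RMA in the affy package after NuGEN amplification and biotin labelling, with no filter on probe sets. The sources used here give no versions. Quantile normalization in RMA removes differences in overall signal between arrays, and RMA values carry no detection call. The number of arrays limits the precision.

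Symbols came from the array annotation, and promoter and miRNA sequences from RefSeq tables of GRCm38.p6. Of 45101 probe sets, 34958 had 1 symbol, 932 several and 9211 none; 64 controls and 23 Y-linked or *Xist* probe sets were left out and 45014 tested. R 4.3.3 with limma 3.58.1 (lmFit, eBayes) was fitted to all 8 arrays with the donor as a random block (duplicateCorrelation, 0.240), and p-values were adjusted by Benjamini-Hochberg over all 45014. Same-donor deviations from the group means correlated at r = 0.230 in knockout and 0.754 in WT arrays. The pairing was taken from the genotype and replicate number in the labels. The fit was tested on simulated data. Plots used Python 3.11.15 and matplotlib 3.10.9.

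All 4 members were named. Of each further list the called genes with the largest changes (up to 4 per comparison, on the brightest probe set) and *Ifnb1*, *Stat2*, *Irf9* and *Irf7* were named, with the 5 genes most correlated with the family (1 symbol, mean of at least 6, SD of at least 1). *Ifit1bl2* and *Mir155hg* were added after their values were seen. The members and lists were chosen with earlier results of these data known.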

Additional observations from a re-analysis of the deposited data

Results flagged for a closer look

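*Tyk2* and *Ifnb1* were marked because the IL-10 effect had opposite signs in the 2 genotypes in every donor. For *Tyk2* it was −0.84 and −0.76 in the KO donors against 0.14 and 0.19 in the WT donors, a difference of −0.97 (SE 0.22, limma adjusted p = 0.292). For *Ifnb1* it was 0.14 and 0.18 in the KO donors against −0.05 and −0.38 in the WT donors, a difference of 0.37 (SE 0.19, limma adjusted p = 0.544). Neither difference passed the test after adjustment. *Ifnb1* lay between 2.80 and 3.47 on all arrays, below the median of 3.91 over all probe sets and arrays, so its signs rest on low values.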

How the results depend on the processing

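With 2 arrays per group, the number of IFIT genes called moved by over 1.5 times in 22 of 24 alternatives for IL-10 in WT BMDM and in 18 of 23 for *miR-155*-/-(LPS) against WT(LPS), but in 6 of 24 for IL-10 in *miR-155*-/- BMDM, 4 of 23 for the genotypes under IL-10 and 3 of 23 for the difference of the IL-10 effects. In the 4 comparisons between groups no alternative turned the sign of an IFIT gene (360 refitted values). Several alternatives, such as no replicate block, the intensity trend or the filter on the mean, leave the estimate itself unchanged and could not turn it. For the comparison of WT(LPS + IL-10) with WT(LPS), where 1 of the 4 genes was called, the number was 0 with no replicate block, with the replicate number as a fixed term, with only the arrays compared, with array weights and with a second quantile normalization. It was 2 with an intensity trend and with arrays centred on their medians, and 4 with the donor as a fixed term, with only probe sets whose mean was 6 or more and by the unadjusted selection rule. For *miR-155*-/-(LPS) against WT(LPS), where 2 were called, it was 0 with only the arrays compared, 1 with no replicate block, with the replicate number, with centred arrays and with a second quantile normalization, and 4 with only probe sets whose mean was 6 or more and by the selection rule. For IL-10 in *miR-155*-/- BMDM, where 4 were called, it was 1 with the replicate number as a fixed term, and 3, without *Ifit2*, with no replicate block and with the intensity trend. For the genotypes compared in the presence of IL-10, where 0 were called (3 at an unadjusted p under 0.05), it was 2 with only probe sets whose mean was 6 or more, 1 with the intensity trend and 3 by the selection rule. For the difference of the IL-10 effects, where 0 were called (1 at an unadjusted p under 0.05), it was 1 with the donor as a fixed term, with only probe sets whose mean was 6 or more and by the selection rule. Without single arrays or single donors, the numbers ran from 0 to 0, 0 to 3, 0 to 4, 0 to 2 and 0 to 0 in these 5 comparisons; 2 were called in the fourth without WT donor 2. The filter on the mean tests fewer probe sets, and *Ifit1bl1* passes it only through *miR-155*-/-(LPS) (mean of 5.25 over the other 6 arrays), so its calls under that filter are no support. The other causes were not tested. The sign of the difference of the IL-10 effects turned for *Ifit2* without WT(LPS) replicate 1 (0.09), WT(LPS + IL-10) replicate 2 (0.19), *miR-155*-/-(LPS + IL-10) replicate 2 (0.46) and KO donor 2 (0.32), over a range of −0.98 to 0.46, and for *Ifit3* without WT(LPS + IL-10) replicate 1, over a range of −0.10 to 0.72. Among the other genes named it ran from −0.015 (without WT donor 2) to 0.14 for *Irf9*, and the difference between the LPS + IL-10 groups ran from −0.14 to 0.017 for *Pank1* and from −0.33 to 0.013 for *Tyk2*, with the turned sign without WT(LPS + IL-10) replicate 2 or WT donor 2. None of these values passed a test. In 6 refits with too few arrays the donor correlation of all 8 arrays was kept, and where 1 array of a group was left it was assumed to vary like the others.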
